A study of Homo sapiens with 9 samples.

Results

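The genes described here encode subunits of BAF and PBAF, which are SWI/SNF-type chromatin remodelling complexes. They are 10 genes of the 67071 in the count table, chosen by name from the known make-up of the complexes: ARID1A, ARID1B, ARID2, PBRM1, BRD7, SMARCB1, SMARCC1, SMARCC2, SMARCD1 and SMARCE1. Of these, 9 had enough reads to be among the 16855 genes tested, and SMARCB1 did not. RNA was measured in 22Rv1, an established human prostate cancer cell line, grown in RPMI 1640 with 10% FBS. There were 3 libraries of cells with a short hairpin RNA against GFP, labelled WT and used as the control (shGFP). A further 3 libraries came from cells with hairpin 1 against CHD9 and 3 from cells with hairpin 2, both labelled as CHD9 knockdown. CHD9 is itself a chromatin remodelling ATPase, of the CHD family. The labels do not say whether the 3 libraries of a group came from separate cultures. Each p-value is set against the spread of libraries within groups, estimated over all 9 libraries. Part or all of that spread may be technical.

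BAF and PBAF use the energy of ATP to slide or evict nucleosomes, and so open enhancers and promoters to transcription factors. Both are built on a shared core of SMARCC, SMARCD, SMARCB1 and SMARCE1 subunits with a SMARCA4 or SMARCA2 motor. ARID1A or ARID1B defines BAF, which acts mainly at enhancers, whereas ARID2, PBRM1 and BRD7 define PBAF. In prostate cancer cells the complexes are known to work at sites bound by the androgen receptor.

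The promoters of SMARCD1 and BRD7 are shown because these genes had the largest called differences of the members for the mean of both hairpins. They are RefSeq sequences of GRCh38.p14, from 250 bases before to 50 bases after the start, read 5′ to 3′ on the gene's strand. Capitals mark matches on either strand to an ETS core (CCGGAA), a GC box (GGGCGG), a YY1 motif (AAGATGG), an E-box (CACGTG) or a TATA motif (TATAAA).
SMARCD1, chr12:50085092-50085391, + strand: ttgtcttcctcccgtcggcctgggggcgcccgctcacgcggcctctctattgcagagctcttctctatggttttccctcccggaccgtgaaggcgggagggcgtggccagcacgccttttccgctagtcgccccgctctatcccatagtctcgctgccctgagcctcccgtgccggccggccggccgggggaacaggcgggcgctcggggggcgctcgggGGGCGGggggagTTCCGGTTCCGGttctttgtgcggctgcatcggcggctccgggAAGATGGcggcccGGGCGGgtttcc
BRD7, chr16:50368939-50369238, − strand: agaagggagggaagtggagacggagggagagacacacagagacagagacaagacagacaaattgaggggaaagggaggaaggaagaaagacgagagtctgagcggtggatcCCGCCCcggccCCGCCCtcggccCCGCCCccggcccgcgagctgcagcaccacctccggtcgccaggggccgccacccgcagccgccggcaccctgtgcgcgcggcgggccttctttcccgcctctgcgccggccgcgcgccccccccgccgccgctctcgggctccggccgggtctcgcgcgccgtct
The SMARCD1 promoter held 2 ETS cores, 2 GC boxes and 1 YY1 motif, and the BRD7 promoter held 3 GC boxes. Of 35116 promoters of the same length, 17.2% held an ETS core, 45% a GC box, 5.84% the YY1 motif, 7.26% the E-box and 11.5% the TATA motif. The SMARCD1 sequence had 35 CpG sites and that of BRD7 had 37, where the median promoter had 14. These matches describe the letters only. Promoter entries were found for 7 of the 10 members, and ARID2, SMARCC1 and SMARCC2 had none.

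Library totals ranged from 18911142 to 31968602 counts, and 15896 to 17375 genes had at least 10 counts. Levels are given as counts scaled to a common library total (CPM). CHD9 was at 22.2 ± 1.42 CPM (SD, n = 3) in shGFP, 15.4 ± 1.07 with hairpin 1 and 18.8 ± 0.465 with hairpin 2, and all 6 hairpin libraries lay below every shGFP library. Markers of luminal prostate cells summed to 1970 to 2010 CPM in shGFP, 2260 to 2290 with hairpin 1 and 2130 to 2160 with hairpin 2. Stromal markers summed to 7.16 to 9.34 CPM, endothelial markers to at most 0.268 and immune markers to at most 0.756, with CDH5 and CD3E at 0 in every library. The part of these differences in the results was not tested. In bulk RNA, fewer cells of a type and less RNA per cell cannot be told apart.

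SMARCB1 and SMARCE1, both core subunits, could not be read in the same way as the others. SMARCB1 (ENSG00000099956.20, GENCODE 29, GRCh38 chr22:23786931-23838008, + strand) had 36 counts over the 9 libraries. The shGFP libraries had 4, 4 and 8. Under hairpin 1 the counts were 8, 0 and 1, and under hairpin 2 they were 1, 5 and 5. The library at 0 allows up to 0.133 CPM (3 counts, counting error only). SMARCB1 lies within 27 consecutive annotated genes, over 245 kb, none of which had more than 36 counts. Of these, 24 were listed at 0, including 11 of 13 protein-coding genes and MIF, a cytokine gene that most cells express. On either side, VPREB3 had 125 counts, ZNF70 had 2494 and CABIN1 had 21725. The SMARCB1 level is therefore given as counts in this table, and no difference was computed. How reads with several matches were handled is not given in the sources used here, and its part was not tested.

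**Figure D1:**
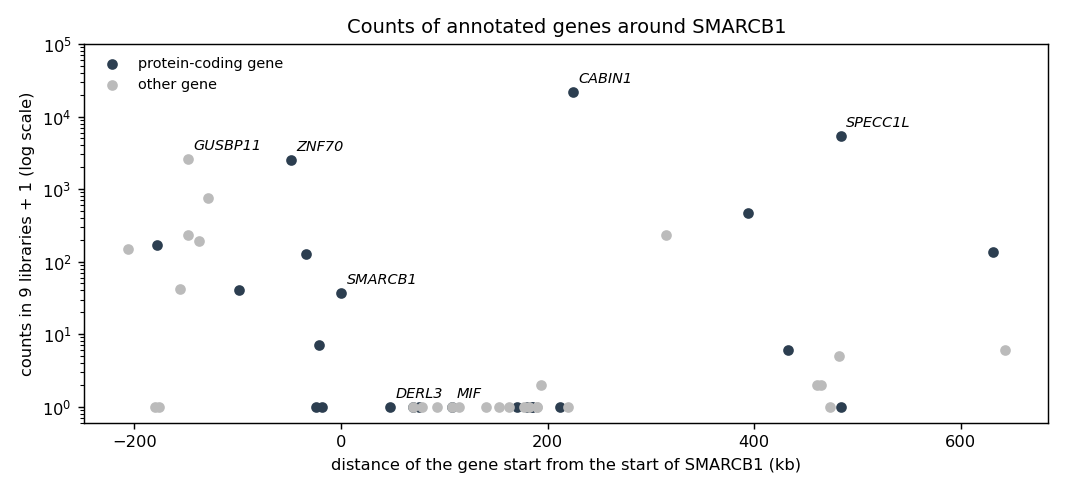
Total counts over the 9 libraries plus 1 (log axis) of annotated genes around SMARCB1, by the distance of each gene start from that of SMARCB1 in kb. Each point is a gene, dark where protein-coding. The 27 genes of the run have at most 36 counts each, between VPREB3 and ZNF70 on one side and CABIN1 on the other.

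SMARCE1 (ENSG00000073584.20, chr17:40624962-40648864, − strand), the HMG-domain subunit, had 702 counts in all. The shGFP libraries held 56, 64 and 104 of them, the hairpin 1 libraries 52, 71 and 126, and the hairpin 2 libraries 48, 107 and 74. A second gene on the same strand, AC073508.2, covers 70.5% of the SMARCE1 coding bases and had 1 count. How reads that fall in both genes were counted is not given, and its part was not tested. SMARCE1 was at 3.25 ± 0.633 CPM (SD, n = 3) in shGFP, at 3.48 ± 1.10 under hairpin 1 and at 2.90 ± 0.866 under hairpin 2, and the 3 groups overlapped. The log2 difference of the hairpin mean from shGFP was −0.04, with a 95% interval from −0.39 to 0.32 (edgeR, Benjamini-Hochberg adjusted p = 0.892).

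The order of levels in shGFP was set per kilobase of exonic length. SMARCC1, a scaffold of the core, was highest at 63.7 ± 1.18 CPM per kb (SD, n = 3). ARID1A followed at 26.0 ± 0.613, SMARCD1 at 25.7 ± 0.337 and SMARCC2 at 22.5 ± 0.574 CPM per kb. By this length, ARID1A and SMARCD1 did not differ beyond their spread. BRD7 was at 13.8 ± 0.0924 and PBRM1 at 13.1 ± 0.221 CPM per kb. ARID2 was at 7.56 ± 0.358, ARID1B at 1.58 ± 0.0174 and SMARCE1, whose reads may be assigned elsewhere, at 0.174 ± 0.0339 CPM per kb. The length used matters most for ARID1B, whose exons sum to 44677 bases while its longest transcript has 10813, and per kb of that transcript it was at 6.54 CPM. The longest transcript also set ARID1A apart from SMARCD1, at 48.2 ± 1.14 against 36.0 ± 0.474 CPM per kb. By that length SMARCC2, at 45.0 CPM per kb, was above SMARCD1 as well.

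In the mean of both hairpins against shGFP, SMARCD1, BRD7 and SMARCC1 fell and ARID1B rose, while 5 members did not pass the test. With each hairpin alone, SMARCD1 and BRD7 passed with both, SMARCC1 with hairpin 2 and ARID1B with hairpin 1. The ARID1B rise for the mean turned to −0.13 on the log2 scale once trends on GC content and exonic length were removed, as described with the gene. The differences were small. The median absolute log2 difference of the 9 tested members was 0.04, beside 0.17 for all genes tested. Their median signed difference was −0.04 beside 0.00. The members and all genes were not matched for level. These medians, and the counts that follow, are without the correction for GC content and exonic length. That correction gave −0.12 for ARID1A, −0.13 for ARID1B, 0.14 for PBRM1 and −0.08 for SMARCC2. It moved BRD7 nearer to 0. Higher calls numbered 1 of 9 members, where 22.3% of all genes tested were called higher, and lower calls 3 of 9, where 23.2% were called lower. Groups did not overlap for 3 members, where 31.7% of all genes did not. The summed level of the 10 members was 1630 to 1640 CPM in shGFP, 1610 to 1630 with hairpin 1 and 1570 to 1580 with hairpin 2. Calls are edgeR quasi-likelihood tests at a Benjamini-Hochberg adjusted p under 0.05 over all 16855 genes.

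**Figure D2:**
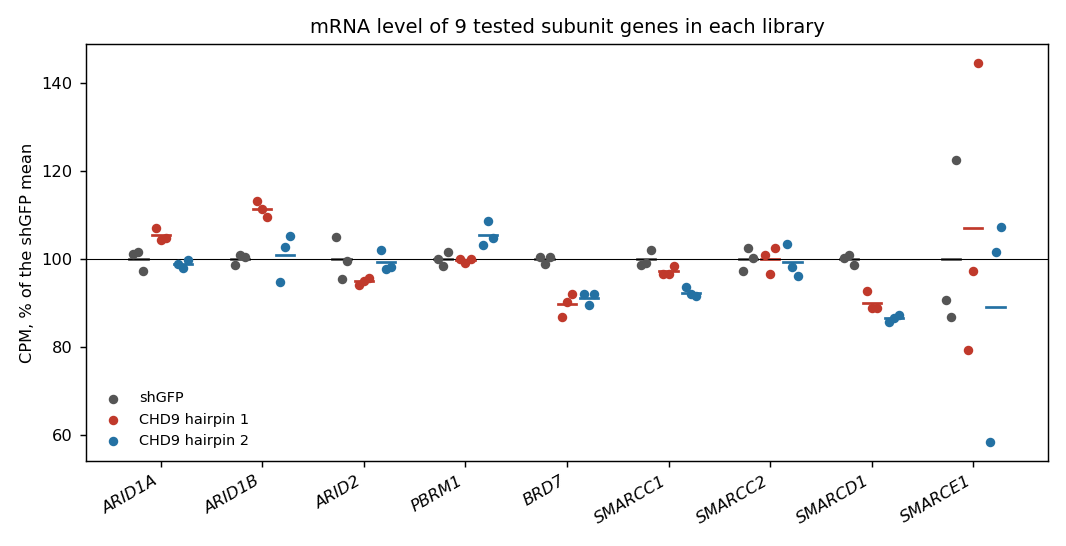
CPM of the 9 tested members as percent of the gene's shGFP mean, with 1 point for each library and a short line for each group mean. For SMARCD1 the 6 hairpin libraries, at 113 to 122 CPM, lie below the 3 shGFP libraries at 130 to 133 CPM, and the points of SMARCE1 are the most scattered.

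With hairpin 1, 2 members rose (ARID1A and ARID1B) and 2 fell (BRD7 and SMARCD1), where 23.9% and 23.4% of all genes were called higher and lower. Groups did not overlap for 5 members, where 53.9% of all genes did not. With hairpin 2, 1 member rose (PBRM1) and 3 fell (BRD7, SMARCC1 and SMARCD1), where 17.2% and 18.5% of all genes were called. Groups did not overlap for 4 members, where 44.1% of all genes did not. Both comparisons use the same 3 shGFP libraries.

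**Figure D3:**
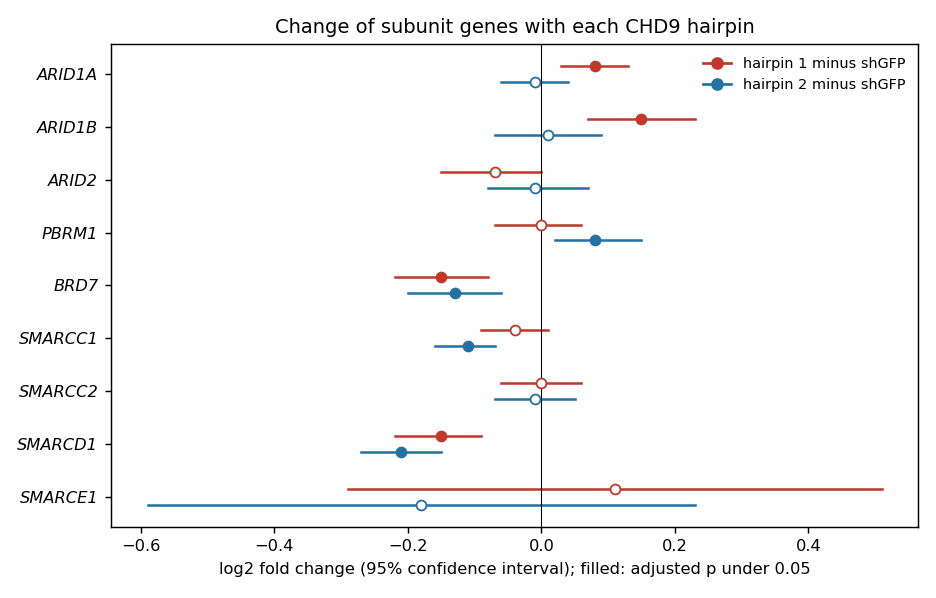
Log2 difference of each tested member with hairpin 1 and with hairpin 2 against shGFP. Lines are 95% intervals and filled points passed the test. SMARCD1 and BRD7 lie below 0 with each hairpin, and SMARCE1 has the widest intervals, from −0.29 to 0.51 with hairpin 1 and −0.59 to 0.23 with hairpin 2.

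Among the subunits that target BAF, ARID1A (ENSG00000117713.20, chr1:26693236-26782110, + strand) was the more abundant. It was at 418, 420 and 402 CPM in shGFP. The hairpin 1 libraries stood at 443, 431 and 433 and those of hairpin 2 at 409, 405 and 413. All hairpin 1 libraries lay above both other groups, whereas hairpin 2 overlapped shGFP. ARID1A was 5.51% higher with hairpin 1 (log2 difference 0.08, SE 0.02, edgeR, adjusted p = 0.00806), and with hairpin 2 the log2 difference was −0.01 (interval −0.06 to 0.04, adjusted p = 0.701). The rise was no longer called without shGFP replicate 3 (0.06, adjusted p = 0.0797) or hairpin 1 replicate 1 (0.07, adjusted p = 0.0602).

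ARID1B (ENSG00000049618.24, chr6:156776020-157210779, + strand), the alternative ARID subunit of BAF, was at 69.8, 71.3 and 71.0 CPM in shGFP. It was at 80.1, 78.8 and 77.4 with hairpin 1, above every other library, and at 67.0, 72.6 and 74.4 with hairpin 2, which overlapped shGFP. ARID1B was 11.3% higher with hairpin 1 (log2 difference 0.15, SE 0.04, edgeR, adjusted p = 0.0013), and with hairpin 2 the log2 difference was 0.01 (interval −0.07 to 0.09, adjusted p = 0.874). For the mean of both hairpins the log2 difference of 0.08 had an adjusted p of 0.0498, and DESeq2 did not call it (adjusted p = 0.0911). Of the 9 fits that left out a library, 7 lost this call (adjusted p = 0.0685 to 0.146), all but those without hairpin 1 replicate 3 or hairpin 2 replicate 1.

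The direction of both BAF ARID genes depended on a correction for GC content and length. The longest transcripts of ARID1A and ARID1B are 57.5% and 53.7% GC. When a smooth trend on GC content and exonic length was removed from each library, the hairpin 1 difference turned to −0.12 for ARID1A (edgeR, adjusted p = 7.34e-06) and −0.09 for ARID1B (adjusted p = 0.048) on the log2 scale. With hairpin 2 the corrected difference was −0.13 for ARID1A (edgeR, adjusted p = 4.13e-06) and −0.18 for ARID1B (adjusted p = 0.000182). For PBRM1, at 40.4% GC, the same correction moved the hairpin 1 difference from −0.00 to 0.13 (edgeR, adjusted p = 0.000153). The PBRM1 difference for the mean of both hairpins moved from 0.04 to 0.14 (adjusted p = 1.08e-05). SMARCD1 at 54.7% GC stayed lower, at −0.24 in place of −0.15 with hairpin 1.

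**Figure D4:**
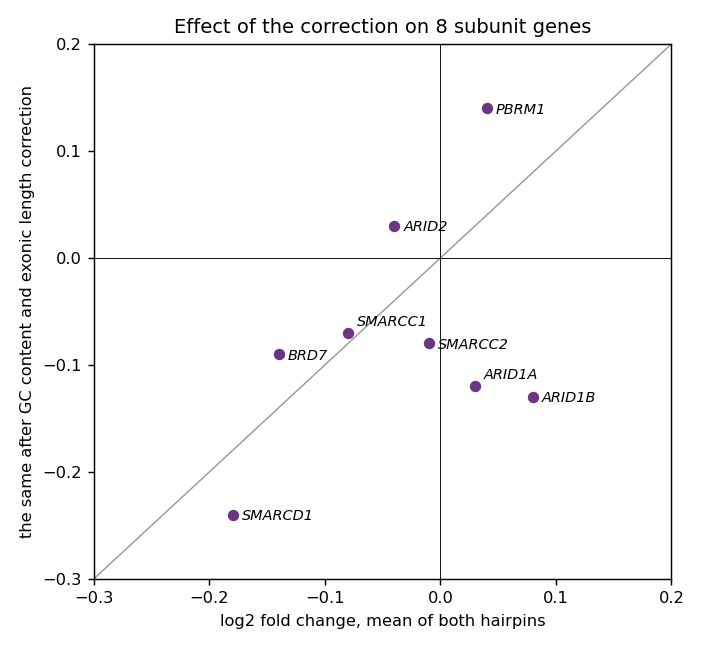
Log2 difference of 8 tested members (SMARCE1 is not drawn) for the mean of both hairpins against shGFP, without the correction for GC content and exonic length (x axis) and with it (y axis). The diagonal marks equal values. ARID1A and ARID1B move from above 0 to −0.12 and −0.13, while SMARCD1, BRD7 and SMARCC1 stay below 0.

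Of the PBAF subunits, BRD7 fell with both hairpins. BRD7 (ENSG00000166164.15, chr16:50313487-50368934, − strand) is a bromodomain protein that binds acetylated histones. It was at 118, 116 and 118 CPM in shGFP. The hairpin 1 libraries stood at 102, 106 and 108 and those of hairpin 2 at 108, 105 and 108, so all 6 hairpin libraries were below the controls. BRD7 fell by 9.99% with hairpin 1 (log2 difference −0.15, SE 0.03, edgeR, adjusted p = 0.000175) and fell by 8.63% with hairpin 2 (−0.13, SE 0.03, adjusted p = 0.00146). The GC content and exonic length correction left −0.09 for the mean of both hairpins, from −0.14, and the call was kept. ADCY7, on the opposite strand, shares 3593 of the 8492 exonic bases of BRD7 and had 2917 counts against 23735, and the strand setting is not given.

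PBRM1 (ENSG00000163939.18, chr3:52545352-52685917, − strand) has several bromodomains and is a defining subunit of PBAF. It was at 127, 125 and 129 CPM in shGFP. The hairpin 1 libraries stood at 127, 126 and 127 and those of hairpin 2 at 131, 138 and 133, which lay above the other groups. PBRM1 was 5.87% higher with hairpin 2 (log2 difference 0.08, SE 0.03, edgeR, adjusted p = 0.0365). The rise was called in 14 of 19 alternative runs, over which the log2 difference ranged from 0.06 to 0.14. This call was lost with DESeq2 (adjusted p = 0.0561) and without hairpin 2 replicate 2 (0.06, adjusted p = 0.207), shGFP replicate 1 (adjusted p = 0.077) or shGFP replicate 2 (adjusted p = 0.135).

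ARID2 (ENSG00000189079.17, chr12:45729665-45908040, + strand), which joins the PBAF module to the core, was at 96.2, 87.6 and 91.2 CPM in shGFP. It was at 86.2, 87.1 and 87.8 with hairpin 1 and 93.6, 89.6 and 90.1 with hairpin 2, and both overlapped the controls. The log2 difference was −0.07 with hairpin 1 (interval −0.15 to 0.00, edgeR, adjusted p = 0.111) and −0.01 with hairpin 2 (−0.08 to 0.07, adjusted p = 0.911). Without shGFP replicate 2 the hairpin 1 difference was −0.10 with an adjusted p of 0.0347.

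In the core, SMARCD1 had the largest called difference of any member. SMARCD1 (ENSG00000066117.15, chr12:50084972-50100712, + strand) links the complex to transcription factors and nuclear receptors. It was at 132, 133 and 130 CPM in shGFP. The hairpin 1 libraries stood at 122, 117 and 117 and those of hairpin 2 at 113, 114 and 115, with no overlap between any groups. SMARCD1 fell by 10.0% with hairpin 1 (log2 difference −0.15, SE 0.03, edgeR, adjusted p = 9.01e-05) and fell by 13.6% with hairpin 2 (−0.21, SE 0.03, adjusted p = 5.96e-07). For the mean of both hairpins it was −0.18, and 48.4% of all genes tested had a larger absolute difference.

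SMARCC1 (ENSG00000173473.11, chr3:47585272-47782106, − strand), the more abundant core scaffold, was at 481, 483 and 498 CPM in shGFP. It was at 471, 471 and 480 with hairpin 1 and 456, 449 and 446 with hairpin 2, all below the controls. With hairpin 2 it fell by 7.61% (log2 difference −0.11, SE 0.02, edgeR, adjusted p = 0.000139). With hairpin 1 the log2 difference was −0.04 (interval −0.09 to 0.01, adjusted p = 0.18).

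SMARCC2 (ENSG00000139613.12, chr12:56162983-56189567, − strand), its paralogue, was at 187, 197 and 193 CPM in shGFP. The hairpin 1 libraries stood at 194, 186 and 197 and those of hairpin 2 at 199, 189 and 185, and all groups overlapped. Its log2 difference was −0.00 with hairpin 1 (interval −0.06 to 0.06, edgeR, adjusted p = 0.996) and −0.01 with hairpin 2 (−0.07 to 0.05, adjusted p = 0.829). After the GC content and exonic length correction it was called lower, at −0.08 for the mean of both hairpins. MYL6, on the opposite strand, shares 514 of the 8555 exonic bases of SMARCC2. It had 63053 counts against 41495 for SMARCC2, and the strand setting is not given.

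Hairpins 1 and 2 differed from each other in 4 of the 9 members, and in 1 of them, SMARCC1, after the GC content and exonic length correction. Higher with hairpin 1 were ARID1A (log2 difference 0.09, edgeR, adjusted p = 0.00322), ARID1B (0.14, adjusted p = 0.00411) and SMARCC1 (0.07, adjusted p = 0.0137), 3 of 9 where 15.6% of all genes were called. PBRM1 was lower with hairpin 1 (−0.08, adjusted p = 0.0371), 1 of 9 where 13.6% were called. Groups did not overlap for 6 members, where 39.6% of all genes did not. The difference between hairpins was not called for BRD7 (−0.02, interval −0.09 to 0.05) or SMARCD1 (0.06, −0.01 to 0.12). With the correction, the edgeR adjusted p was 0.863 for ARID1A (0.01), 0.0833 for ARID1B (0.09) and 0.891 for PBRM1 (−0.01).

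Ratios between paralogues within a library carry no library scaling. The log2 count ratio of ARID1A to ARID1B was 2.55 ± 0.04 in shGFP (SD, n = 3), 2.47 ± 0.02 with hairpin 1 and 2.52 ± 0.08 with hairpin 2. The hairpin 1 libraries, at 2.45 to 2.48, lay below the controls at 2.50 to 2.58. For SMARCC1 to SMARCC2 the log2 ratio was 1.34 ± 0.04, 1.30 ± 0.04 and 1.24 ± 0.04 in the same order, and hairpin 2 at 1.20 to 1.27 lay below shGFP at 1.30 to 1.37. For ARID2 to ARID1A, PBAF against BAF, it was −2.17 ± 0.08, −2.32 ± 0.03 and −2.17 ± 0.03, with hairpin 1 at −2.36 to −2.30 below shGFP at −2.26 to −2.12. These ratios carry no correction for GC content and length. With it, the hairpin 1 difference was 0.03 for ARID2 and −0.12 for ARID1A, so the ARID2 to ARID1A ratio moved the other way.

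SMARCD1 shares its place in the complex with SMARCD2 and SMARCD3. SMARCD2 was at 254 ± 12.7, 308 ± 4.50 and 267 ± 4.42 CPM in shGFP, hairpin 1 and hairpin 2, and SMARCD3 at 80.2 ± 2.14, 103 ± 0.923 and 93.5 ± 1.93. SMARCD3 rose with both hairpins (log2 differences 0.36 and 0.22, edgeR, adjusted p = 1.33e-11 and 1.6e-06). SMARCD2 rose with hairpin 1 (0.28, adjusted p = 5.84e-11), while hairpin 2 gave 0.07 (adjusted p = 0.055). This hairpin 2 difference was called in 6 of 19 alternative runs, over which it ranged from 0.00 to 0.10. Per kb of exonic length, SMARCD1 made up 23.5% ± 0.598 of the 3 paralogues in shGFP, 18.4% ± 0.444 with hairpin 1 and 19.9% ± 0.367 with hairpin 2, and no hairpin library reached the control range. After the GC content and exonic length correction, the mean differences were 0.07 for SMARCD2, from 0.17, and 0.24 for SMARCD3, from 0.29.

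**Figure D5:**
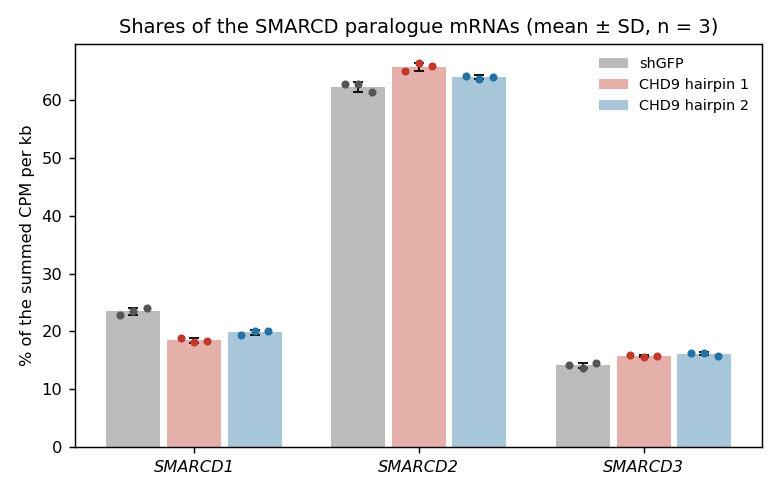
Share in percent of SMARCD1, SMARCD2 and SMARCD3 in their summed level per kb of exonic length, by group. Bars are means, error bars the SD of 3 libraries and points the libraries. SMARCD1 goes from 22.9 to 24.1% in shGFP to 18.1 to 20.1% in the hairpin libraries.

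The other subunits of BAF, PBAF and the related ncBAF complex were read from a list of 21 genes, of which 18 were tested. For the mean of both hairpins 7 rose, 3 fell and 8 did not pass, where 22.3% of all genes tested were called higher and 23.2% lower. Their median log2 difference was 0.06 beside 0.00 for all genes. SS18L1, an SS18 paralogue, rose by 0.48 (edgeR, adjusted p = 5.83e-11), and PHF10, a PBAF subunit, by 0.23 (adjusted p = 1.76e-07). BICRAL rose by 0.20 and BICRA by 0.13, both ncBAF subunits, and BCL7C by 0.12, while SMARCD2 and SMARCD3 are given above. BCL7A fell by 0.15, DPF2, a BAF PHD-finger subunit, by 0.11 and ACTL6A, an actin-related subunit, by 0.10. The motors did not pass, with SMARCA4 at 0.01 (interval −0.04 to 0.06) and SMARCA2 at 0.03 (−0.04 to 0.09). Nor did ACTB, DPF1, BRD9, SS18, BCL7B and BCL11A, and ACTL6B, DPF3 and BCL11B were not tested. The BICRA call was lost with DESeq2 (adjusted p = 0.074) and without shGFP replicate 1 or 3, hairpin 1 replicate 1 or 3, or hairpin 2 replicate 1 (log2 differences 0.10 to 0.13). That of BCL7A was lost without shGFP replicate 2 (−0.12, edgeR adjusted p = 0.0748). After the GC content and exonic length correction BCL7C was at −0.06 and no longer called, and BICRA was called lower at −0.12. SMARCA4 (−0.20, edgeR adjusted p = 1.79e-11), ACTB (−0.07), BRD9 (−0.13) and BCL7B (−0.12) were then called lower, and SS18 (0.09) higher. PHF10 then stood at 0.41, DPF2 at −0.17 and ACTL6A, no longer called, at −0.02.

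The genes whose profile over the 9 libraries was nearest to SMARCD1 were BCR, MAPKAPK2 and AP2A1. Nearness was the root mean square difference of log2 CPM centred on each gene's mean, among 10722 genes of at least 5 CPM on average. It was 0.014 for BCR, 0.018 for MAPKAPK2 and 0.019 for AP2A1, where the median gene was at 0.140. BCR was at 112 ± 1.53, 101 ± 0.865 and 97.6 ± 1.53 CPM in shGFP, hairpin 1 and hairpin 2 (SD, n = 3).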

How the data were processed

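Per the labels' protocols, polyadenylated RNA was extracted with a column kit and made into directional libraries. Per the submitters' processing notes, Trim Galore, STAR, hg38 and DESeq2 were used. Tool versions, the counting program with its strand setting, and the annotation are not stated in those notes or protocols. The authors deposited raw counts, whole reads per gene, as 1 table of 9 libraries.

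The members and gene lists were chosen with earlier results of these data known. Named genes are all members, CHD9, the listed subunits called for the mean of both hairpins, and the 3 profiles nearest to the called member with the largest difference. Genes were kept by filterByExpr (minimum count 10) and fitted over all 9 libraries with TMM scaling and the quasi-likelihood test of edgeR 4.0.16 in R 4.3.3, with 4 contrasts, Benjamini-Hochberg adjusted over all 16855 genes and called under 0.05. The standard error is the absolute log2 difference over the square root of F. The fit was tested on simulated data. Symbols were found for 60704 identifiers, and coordinates and lengths are from GENCODE 29. Alternatives were DESeq2 1.42.0 (size factors, Wald test), voom in limma 3.58.1, 2 other filters, the compared groups alone, a replicate block, offsets for GC content and length (mgcv 1.9.3), and each library left out. The correction with the longest transcript was added after seeing the data.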

Additional observations from a re-analysis of the deposited data

Results flagged for a closer look

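The effects of the 2 hairpins, each against the same shGFP libraries, differed in 4 of the 9 tested members. This was by a test of the difference itself (edgeR, hairpin 1 minus hairpin 2). Of all genes tested, 29.2% were called in this contrast, and 26.5% after the GC content and exonic length correction. The log2 difference between the effects was 0.09 for ARID1A, 0.14 for ARID1B, −0.08 for PBRM1 and 0.07 for SMARCC1. After the GC content and exonic length correction it was 0.01 for ARID1A, 0.09 for ARID1B, −0.01 for PBRM1 and 0.08 for SMARCC1, and SMARCC1 alone of the 4 was still called (edgeR adjusted p = 0.863 for ARID1A, 0.0833 for ARID1B and 0.891 for PBRM1). It was not called without hairpin 2 replicate 1 for ARID1B (0.10, edgeR adjusted p = 0.0739), nor without hairpin 1 replicate 3 for SMARCC1 (adjusted p = 0.0807). For PBRM1 it was not called with DESeq2 (adjusted p = 0.0567), nor in 5 of the fits that left out a library, those without any 1 hairpin 1 library (−0.09 to −0.08) or hairpin 2 replicate 2 (−0.06) or 3 (−0.09). CHD9 was also lower with hairpin 1 than with hairpin 2, by a log2 difference of −0.28, and its part was not tested.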

How the results depend on the processing

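SMARCD1 and BRD7 were called lower against shGFP, for each hairpin and for their mean, in every alternative run, and so was SMARCC1 for hairpin 2 and for the mean. Over 36 member contrasts, 305 of 351 comparisons with alternatives that leave out no library kept direction and call, 16 lost the call, 12 gained one and 18 reversed. Sign changes between values that both failed the test count as kept. Of 324 with a library left out, 304 kept both, 19 lost the call, 1 gained it and 0 reversed.

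With the GC content and exonic length correction, with the replicate block added to it, and with the longest transcript, the log2 differences were −0.12, −0.12 and −0.11 for ARID1A with hairpin 1 and the same 3 values for the mean. For ARID1B they were −0.09, −0.09 and −0.00 with hairpin 1, −0.18, −0.18 and −0.09 with hairpin 2, and −0.13, −0.13 and −0.05 for the mean. For PBRM1 with hairpin 1 all 3 were 0.13. For the mean, BCL7C was at −0.06, −0.06 and −0.05, BICRA at −0.12 in all 3, SMARCA4 at −0.20, −0.20 and −0.15, and ACTL6A at 0.00 with the longest transcript. In the same order, members called lower numbered 6, 6 and 5 for the mean, 5, 5 and 4 for hairpin 1 and 5, 5 and 5 for hairpin 2, where with the exonic correction 23.6%, 22.9% and 20.3% of all genes were called lower. Members called higher numbered 1 in each for hairpin 1 and for hairpin 1 against 2, where those called lower numbered 0 (with the exonic correction, 21.8% of all genes were called higher for hairpin 1, and 26.5% in either direction for hairpin 1 against 2). Other subunits called lower numbered 7 in each for the mean, 6, 6 and 5 for hairpin 1 and 6 in each for hairpin 2. The shares of all genes for these are the 23.6%, 22.9% and 20.3% above. The cause was not tested.

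Members called higher numbered 0 for the mean with DESeq2, voom and no low-count filter, and 0 for hairpin 2 with DESeq2 and no filter. Of all genes, 19.9%, 22.0% and 11.3% were called higher for the mean in these runs, and 14.5% and 8.7% for hairpin 2. Members called lower in hairpin 1 against 2 numbered 0 with DESeq2 and no filter, and other subunits 1 with DESeq2. In that contrast, 11% of all genes were called lower with DESeq2 and 6.9% with no filter. With a library left out, members called higher ranged from 0 to 1 for the mean, 1 to 2 for hairpin 1, 0 to 1 for hairpin 2 and 2 to 3 for hairpin 1 against 2. Members called lower were 3 throughout for the mean and hairpin 2, 2 to 3 for hairpin 1 and 0 to 1 for hairpin 1 against 2. Other subunits called higher ranged from 6 to 7, 7 to 9, 4 to 8 and 6 to 8, and lower 3 throughout, 1 to 3, 2 to 4 and 0 to 3, in the order mean, hairpin 1, hairpin 2 and hairpin 1 against 2. In the same order, 19.2 to 21.9%, 21.0 to 23.9%, 14.5 to 17.1% and 12.2 to 15.5% of all genes were called higher. Called lower in these fits were 19.6 to 22.5%, 20.7 to 23.6%, 15.5 to 17.9% and 10.5 to 13.5% of all genes.

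Per kb of the longest transcript, shGFP levels in CPM were 76.4 for SMARCC1, 48.2 for ARID1A, 45.0 for SMARCC2, 36.0 for SMARCD1, 21.8 for BRD7, 16.9 for PBRM1, 10.6 for ARID2, 6.54 for ARID1B, 0.384 for SMARCE1 and 0.0443 for SMARCB1. The levels of SMARCE1 and SMARCB1 may not reflect expression. SMARCE1 is nevertheless counted among the 9 tested members.

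Same-numbered libraries of different groups did not deviate together (r from −0.03 to 0.04 over 9 pairs), and 1 library was nearest to its own number. The replicate block called 7669 genes for the mean, beside 7675 without it, and changed no count of members. SMARCE1 and SMARCB1 have few counts, and whether depth or read assignment limits them was not tested.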
